A study of Mus musculus with 28 samples.

Results

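MMERVK10C and RLTR10 are families of mouse endogenous retroviruses of the ERVK superfamily, and 9 of the 539 repeat families measured have names that start with MMERVK10 or RLTR10. Every family with such a name was taken. They are MMERVK10C-int and RLTR10-int, which are internal regions, and the long terminal repeats (LTRs) RLTR10, RLTR10A, RLTR10B, RLTR10B2, RLTR10C, RLTR10D and RLTR10E. Together they count 14965 genomic elements, from 478 for RLTR10B to 3437 for MMERVK10C-int.

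An endogenous retrovirus is a viral genome that entered the germ line and is inherited as part of the chromosomes. Its internal region holds the gag, pro and pol genes, and the LTRs at its ends carry the promoter and the signal that ends the transcript; RLTR10C is the LTR of MMERVK10C proviruses. Many copies have lost the internal region and remain as solitary LTRs. In the mouse embryo such elements are bound by KRAB zinc finger proteins and their partner TRIM28, which brings in SETDB1, an enzyme that trimethylates lysine 9 of histone H3 (H3K9me3), a mark of silent chromatin. H3K27me3 is the mark laid down by the Polycomb complex PRC2. Fetal germ cells erase most of their DNA methylation, another mark that keeps these elements silent in other cells.

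All germ cells came from mouse gonads at E13.5 and were primordial germ cells (PGCs, from which sperm and eggs descend), sorted for the surface antigen SSEA1. The groups were Setdb1 KO (delta/-), Het1 (delta/+), Het2 (flox/-) and WT (flox/+), in male and female PGCs. RNA was measured in 2 KO, 2 Het1, 2 Het2 and 1 WT library per sex, and Het1 and Het2 are pooled as Het (n = 4 per sex). H3K9me3 and H3K27me3 were measured by ChIP-seq in 1 KO and 1 Het (flox/-) library per sex, and total histone H3 in 1 library of wild-type C57BL/6 male PGCs. The sources used here do not name the Cre line that made the delta allele, the exons it removes or whether a library pools embryos. Values are RPKM, reads scaled by feature length and sequencing depth, given by the authors for all copies of a family together. How reads that match several copies or several families were assigned is not given in the sources used here, so similar members may share reads and are not independent of each other.

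Some facts of the libraries touch every result. Setdb1 RNA stood at 27.1 and 31.2 RPKM in male KO libraries, against 37.5 to 52.1 RPKM in male Het libraries, and at 34.7 and 31.3 RPKM in female KO libraries, against 38.2 to 58.9 RPKM in female Het libraries. Every KO library was below every Het library of its sex, but the log2 difference over both sexes, -0.54 (SE 0.13), did not pass (adjusted p = 0.0783 by limma). Of 12 measured germ cell marker genes 0 passed in either sex, but their summed level was 994 and 1358 RPKM in female KO libraries, below the 1423 to 1899 RPKM of female Het libraries. Of the lists for other gonadal cells, the Leydig cell markers moved in males: 5 of the 6 tested rose, with summed levels of 67.5 and 29.6 RPKM in male KO libraries and 3.55 to 5.45 RPKM in male Het libraries, against 779 RPKM in sorted C57BL/6 soma. In females 0 of the 6 passed, with 6.30 and 5.71 RPKM in KO libraries and 4.88 to 12.4 RPKM in Het libraries. None of the 8 Leydig genes measured was at 0 in all 12 libraries. Of the marker lists for Sertoli, pregranulosa, stromal, endothelial, macrophage and erythroid cells 0 genes passed in either sex, but in females the Sertoli sum was 39.1 and 35.5 RPKM in KO libraries, above the 17.6 to 23.9 RPKM of Het libraries, and the pregranulosa sum was 24.0 and 19.3 RPKM in KO libraries, above the 9.30 to 18.0 RPKM of Het libraries. The part of these cells in the repeat values below was not tested. In sorted bulk cells, more cells that transcribe a family and more of its RNA per cell cannot be told apart. Of 25 tested genes for H3K9 methylation and its partners, 0 passed in either direction in any contrast of KO with Het; over both sexes the largest difference among them was 0.56 in Atf7ip, a partner of SETDB1 (adjusted p = 0.0976 by limma).

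Most of these families had more RNA in KO than in Het PGCs, in males and in females, with MMERVK10C-int far ahead. Over both sexes 7 of the 9 families rose and 0 fell by limma on log2(RPKM + 0.1), a scale that understates the change of low values. The share called higher among all 528 families tested was 6.82%. No fit that left out 1 library gave 7 again: the count was 4 without male KO replicate 1, male KO replicate 2, female KO replicate 1 or female Het2 replicate 1, 8 without female Het1 replicate 2, and 5 or 6 without each of the others. MMERVK10C-int, RLTR10C, RLTR10B2 and RLTR10B passed whichever of the 12 libraries was left out. All 9 passed the filter of RPKM 0.1 in 2 libraries, but RLTR10B2 would not have passed it on its Het libraries alone. In males 4 of 9 rose (2.46% of all families) and in females 3 of 9 (1.89% of all families). The median log2 difference of the 9 over both sexes was 0.66, against 0.17 for all families tested and 0.18 for the 113 remaining ERVK families outside the IAP and ETn/MusD groups.

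**Figure D1:**
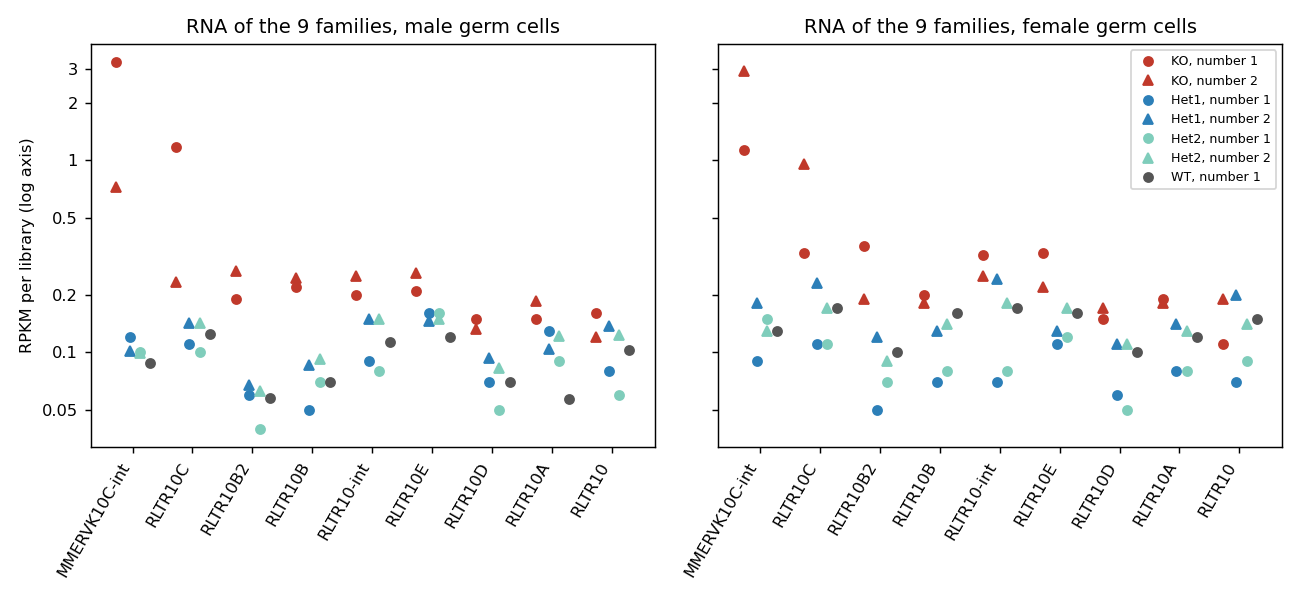
RNA of the 9 families in every library of the cross, in RPKM on a log axis, males on the left and females on the right; circles are libraries numbered 1 and triangles those numbered 2. MMERVK10C-int reaches 3.24 RPKM in male KO replicate 1 and 2.93 RPKM in female KO replicate 2, while its Het libraries stay at 0.18 RPKM or below.

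MMERVK10C-int, the internal region with the coding genes of the provirus, rose most. It had 3.24 and 0.725 RPKM in male KO libraries, against 0.12 and 0.102 RPKM in male Het1 and 0.10 and 0.099 RPKM in male Het2 libraries. In females it had 1.13 and 2.93 RPKM in KO libraries, against 0.09 and 0.18 RPKM in Het1 and 0.15 and 0.13 RPKM in Het2 libraries. All 4 KO libraries lay above all 8 Het libraries, with the high library numbered 1 in males and 2 in females. KO means were 18.8-fold the Het mean in males (1.98 ± 1.78 against 0.105 ± 0.00991 RPKM, SD, n = 2 and 4) and 14.8-fold in females (2.03 ± 1.27 against 0.138 ± 0.0377 RPKM). The log2 difference was 3.02 (SE 0.36, adjusted p = 1.09e-07 by limma) in males and 3.04 (SE 0.36, adjusted p = 3.06e-08) in females, and it was number 1 in males and number 3 in females among all 528 families. The fit used the same spread for KO and Het libraries, although the KO libraries of a sex differed more than its Het libraries. These SEs and p-values therefore overstate the precision that 2 KO libraries per sex give. Without male KO replicate 1 the male difference was 2.01, and without male KO replicate 2 it was 4.03; leaving out 1 library gave 2.39 to 3.69 in females. With a pseudocount of 1 in place of 0.1 the difference was 1.29 in males and 1.35 in females. MMERVK10C-int passed in each of these fits. The WT libraries had 0.088 RPKM in males, just under the Het range, and 0.13 RPKM in females, inside it.

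RLTR10C, the LTR of the same proviruses, followed it. Its RNA was 1.17 and 0.234 RPKM in male KO libraries, against 0.11, 0.143, 0.10 and 0.142 RPKM in male Het libraries. In females it was 0.33 and 0.96 RPKM in KO libraries, against 0.11, 0.23, 0.11 and 0.17 RPKM in Het libraries. The KO and Het libraries did not overlap in either sex, but male KO replicate 2 was less than 0.1 RPKM above the highest male Het library. The log2 difference was 1.55 in males (SE 0.34, adjusted p = 0.00441 by limma) and 1.43 in females (SE 0.34, adjusted p = 0.0109). Without male KO replicate 1 the male difference was 0.58 and without female KO replicate 2 the female difference was 0.78, and each then missed the threshold (adjusted p = 0.913 and 0.962 by limma).

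The internal region gained more than its LTR. Both values are per kilobase, so their ratio within a library can be compared. MMERVK10C-int had 2.77 and 3.10 times the RPKM of RLTR10C in male KO libraries and 3.42 and 3.05 times in female KO libraries, against 0.70 to 1.36 times (median 0.80) over the 8 Het libraries. The KO ratios lay close together although the KO levels themselves differed up to 5.0-fold between libraries of a sex. For RLTR10-int over RLTR10 the ratios overlapped, with 1.25 to 2.91 in KO libraries and 0.89 to 1.33 in Het libraries.

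RLTR10-int, the internal region of the RLTR10 proviruses, rose over both sexes by 0.66 on the log2 scale (SE 0.19, adjusted p = 0.0248 by limma). Its values were 0.20 and 0.251 RPKM in male KO libraries, against 0.09, 0.149, 0.08 and 0.15 RPKM in male Het libraries. In females they were 0.32 and 0.25 RPKM in KO libraries, against 0.07, 0.24, 0.08 and 0.18 RPKM in Het libraries. The groups did not overlap, but the lower female KO library was only 0.01 RPKM above the highest female Het library, which is the last decimal the authors give there. Without male KO replicate 1, male KO replicate 2, female KO replicate 1 or female Het2 replicate 1 it no longer passed (0.59 to 0.72). Within one sex it did not pass (adjusted p = 0.447 in males and 0.269 in females by limma).

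Among the solitary or flanking LTRs, RLTR10B2 rose most after RLTR10C. It had 0.19 and 0.267 RPKM in male KO libraries, against 0.06, 0.068, 0.04 and 0.063 RPKM in male Het libraries. In females it had 0.36 and 0.19 RPKM in KO libraries, against 0.05, 0.12, 0.07 and 0.09 RPKM in Het libraries. The groups stood apart in both sexes, and the log2 difference was 1.05 in males (SE 0.23, adjusted p = 0.00436 by limma) and 1.02 in females (SE 0.23, adjusted p = 0.00712). Without male KO replicate 2 the male difference was 0.88 (adjusted p = 0.169 by limma), and without female KO replicate 1 the female difference was 0.68 (adjusted p = 0.722). RLTR10B rose in males, with 0.22 and 0.245 RPKM in KO libraries against 0.05 to 0.092 RPKM in Het libraries (0.94, SE 0.23, adjusted p = 0.0099 by limma), a call lost without either male KO library or male Het1 replicate 1 (0.87 to 0.99). In females RLTR10B had 0.20 and 0.18 RPKM in KO libraries against 0.07 to 0.14 RPKM in Het libraries, and did not pass (0.52, adjusted p = 0.519 by limma). The difference of its effect between the sexes did not pass either (female minus male -0.42, SE 0.32, adjusted p = 0.898 by limma).

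RLTR10E and RLTR10D passed over both sexes only, close to the threshold, with log2 differences of 0.54 (adjusted p = 0.0441 by limma) and 0.50 (adjusted p = 0.0409). RLTR10E had 0.21 and 0.259 RPKM in male KO libraries against 0.146 to 0.16 RPKM in male Het libraries, and 0.33 and 0.22 RPKM in female KO libraries against 0.11 to 0.17 RPKM in female Het libraries. RLTR10D had 0.15 and 0.132 RPKM in male KO libraries against 0.05 to 0.093 RPKM in male Het libraries, and 0.15 and 0.17 RPKM in female KO libraries against 0.05 to 0.11 RPKM in female Het libraries. Both families stood apart from Het in each sex, by small steps, and kept the call in only 1 (RLTR10E) and 3 (RLTR10D) of the 12 fits that each leave out 1 library. RLTR10A did so too but did not pass over both sexes (0.41, SE 0.16, adjusted p = 0.159): it had 0.15 and 0.186 RPKM in male KO libraries against 0.09 to 0.13 RPKM in male Het libraries, and 0.19 and 0.18 RPKM in female KO libraries against 0.08 to 0.14 RPKM in female Het libraries. RLTR10, the LTR that gives the group its name, overlapped with Het in both sexes, with 0.16 and 0.121 RPKM in male KO libraries against 0.06 to 0.137 RPKM in male Het libraries, and 0.11 and 0.19 RPKM in female KO libraries against 0.07 to 0.20 RPKM in female Het libraries. Its log2 difference was 0.22 (SE 0.17, adjusted p = 0.734 by limma).

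**Figure D2:**
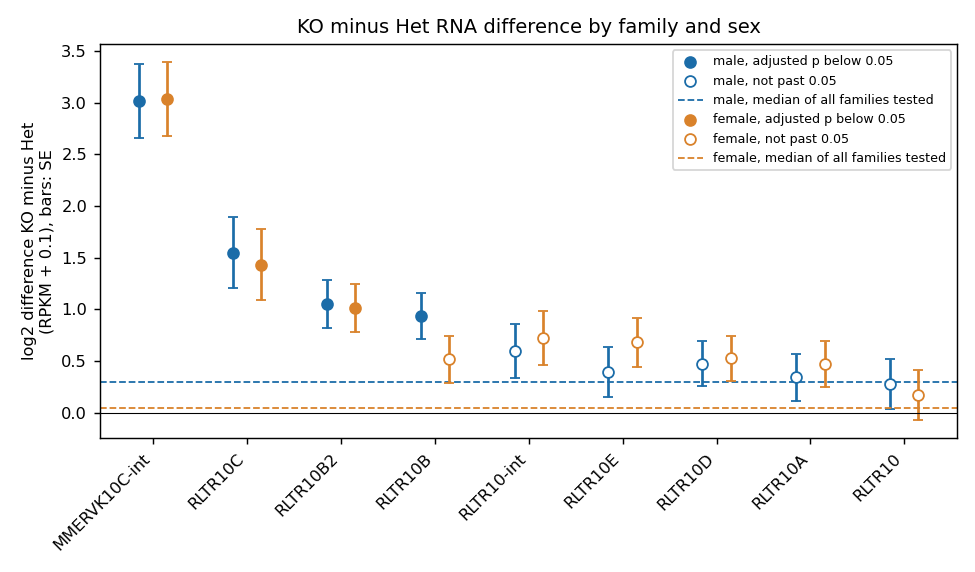
KO minus Het difference of RNA for each of the 9 families in males (blue) and females (orange), on the log2(RPKM + 0.1) scale with standard errors; filled points passed an adjusted p of 0.05 by limma and dashed lines are the medians of all families tested. MMERVK10C-int stands at 3.02 and 3.04, and RLTR10 at 0.28 and 0.17, near the medians of 0.29 in males and 0.05 in females.

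These small steps have to be read beside a shift of the whole repeat table. The median log2 difference of all 528 families was 0.29 in males and 0.05 in females, and 34.5% of all families had both male KO libraries above all 4 male Het libraries, as 8 of the 9 members did. In females the same 8 members stood apart, against 9.47% of all families, and in both sexes at once 8 of 9, against 7.01%. The median RPKM of all families was 0.26 and 0.222 in male KO libraries, 0.15 and 0.13 in the male Het libraries numbered 1, and 0.214 and 0.217 in those numbered 2. In females it was 0.20 and 0.27 in KO libraries, 0.15 and 0.16 in Het libraries numbered 1, and 0.315 and 0.25 in those numbered 2. The part of this shift in the members' differences was not tested, but dividing it out can be measured. Relative to the library median 6 of 9 members still stood apart in males (9.47% of all families), 8 of 9 in females (12.5%) and 6 of 9 in both (4.92%); RLTR10A and RLTR10E then overlapped with Het in males. With each library centred on its median, 5 of 9 members were called over both sexes, MMERVK10C-int (2.83), RLTR10C (1.29), RLTR10B2 (0.83), RLTR10B (0.52) and RLTR10-int (0.46), against 3.41% of all families, and only MMERVK10C-int within males and within females.

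Libraries of the same number give the same order for the leading members. KO replicate 1 was above the mean of the Het libraries numbered 1 by 29.5-fold in males and 9.42-fold in females for MMERVK10C-int, and by 11.1-fold and 3.0-fold for RLTR10C. KO replicate 2 was above the Het libraries numbered 2 by 7.21-fold and 18.9-fold for MMERVK10C-int, and by 1.64-fold and 4.80-fold for RLTR10C. In all 4 such comparisons the KO library was the higher one for 8 of the 9 members. The exception was RLTR10, where male KO replicate 2 stood at 0.931 times its Het libraries. The share of all families that meet all 4 comparisons was not counted, so this does not set the members apart. The median RPKM of all families was itself 0.26 in male KO replicate 1, against 0.15 and 0.13 in male Het libraries numbered 1. In females it was 0.20 against 0.15 and 0.16.

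The members differed in which KO library they were highest in. MMERVK10C-int, RLTR10C, RLTR10 and RLTR10D were higher in male KO replicate 1 and in female KO replicate 2, by 4.47-fold and 2.59-fold for MMERVK10C-int and by 5.0-fold and 2.91-fold for RLTR10C. Relative to the library median RLTR10D had the opposite order, with 0.577 and 0.595 in male KO replicates 1 and 2 and 0.75 and 0.63 in the female ones. The other 5 members went the opposite way on RPKM, higher in male KO replicate 2 and in female KO replicate 1, by 1.41-fold and 1.89-fold for RLTR10B2. The steps of RLTR10A, RLTR10B, RLTR10D and RLTR10-int were below 1.3-fold in each sex. Among all families tested 370 had the order of MMERVK10C-int, in step with the library medians, and 23 that of RLTR10B2. Of the 11 IAP families called over both sexes, 1 had the order of MMERVK10C-int, 4 that of RLTR10B2 and 6 neither order. An example of those 4 is IAPEz-int, the internal region of the most active IAP proviruses. It had 0.674 times as much in male KO replicate 1 as in replicate 2 and 2.73 times as much in females. The Leydig marker sum was also higher in male KO replicate 1, as given above. In that library the Sertoli, stromal, macrophage and erythroid sums were 65.6, 35.2, 14.3 and 32.1 RPKM. Their highest values in male Het libraries were 63.1, 34.2, 9.26 and 16.3 RPKM. Its pregranulosa and endothelial sums lay inside the male Het range. In male KO replicate 2 only the Leydig sum lay above that range. The part of these cells in the male values of MMERVK10C-int was not tested. In females the Leydig sum in KO lay inside the Het range and the Sertoli and pregranulosa sums above it, and their part was not tested either. RNA of sorted soma at these families is not analysed here.

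**Figure D3:**
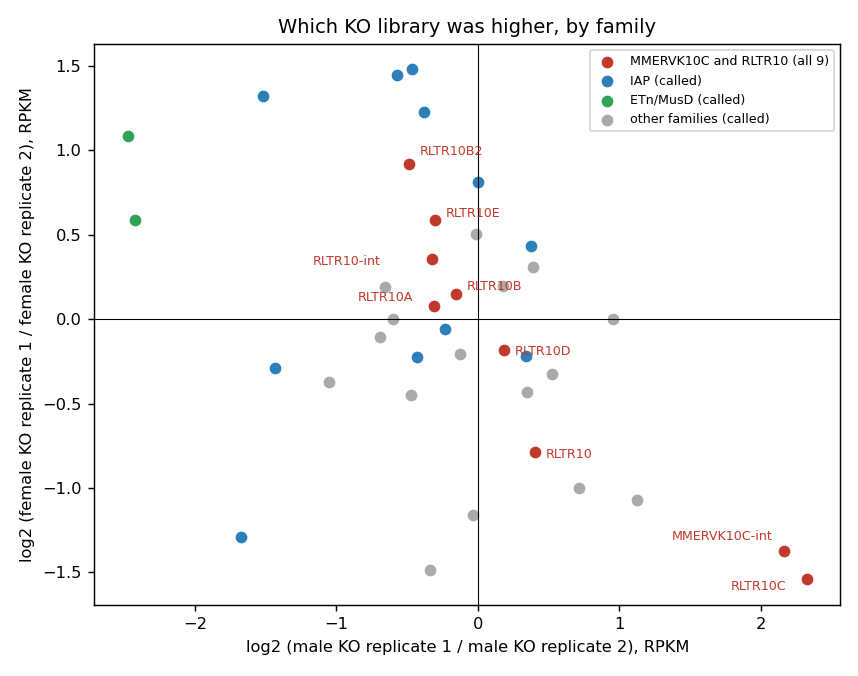
Ratio of KO replicate 1 to KO replicate 2 in males (x axis) and females (y axis), both as log2 of the RPKM ratio, for the 9 families and for the other families called over both sexes. MMERVK10C-int and RLTR10C lie together at the lower right, with ratios of 4.47 and 5.0 in males and 0.386 and 0.344 in females, and RLTR10B2 and RLTR10E lie at the upper left, with female ratios of 1.89 and 1.5.

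By Pearson's r over the 12 libraries on the log2 scale, RLTR10C was the family most like MMERVK10C-int in its RNA (0.951). By Spearman's rho RLTR10B2 was closer, with 0.886 against 0.852 for RLTR10C. Outside the group the closest by Pearson's r were IAP-d-int (0.920), RLTR46 (0.911), RLTR4_MM-int (0.909), LTRIS_Mm (0.901) and RLTR27 (0.894). Their Spearman's rho values were 0.838, 0.842, 0.746, 0.734 and 0.811. Of these families LTRIS_Mm and RLTR4_MM-int belong to ERV1 and the others to ERVK. The r and rho values describe KO and Het libraries together, so they hold the difference between the genotypes, and no p is given. Among the members RLTR10-int (0.670) and RLTR10 (0.515) were the least like it by Pearson's r. By Spearman's rho these were RLTR10E (0.67) and RLTR10 (0.57), with RLTR10-int at 0.77.

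In Het PGCs the members were low and much alike. Over the 8 Het libraries they ranged from 0.04 RPKM for RLTR10B2 to 0.24 RPKM for RLTR10-int, and in males the order by mean was RLTR10E (0.154 ± 0.00712 RPKM), RLTR10C (0.124 ± 0.022), RLTR10-int (0.117 ± 0.0375), RLTR10A (0.112 ± 0.018), MMERVK10C-int (0.105 ± 0.00991), RLTR10 (0.10 ± 0.036), RLTR10B (0.0745 ± 0.0188), RLTR10D (0.0740 ± 0.0186) and RLTR10B2 (0.0578 ± 0.0123; SD, n = 4 each). Of the neighbours in this order, only RLTR10E and RLTR10C differed by more than both of their SDs. That gap was in the libraries numbered 1, with 0.16 and 0.16 RPKM for RLTR10E and 0.11 and 0.10 for RLTR10C. In those numbered 2, RLTR10E (0.146 and 0.15 RPKM), RLTR10-int (0.149 and 0.15) and RLTR10C (0.143 and 0.142) lay side by side. The WT library lay inside the Het range for 6 of 9 members in males, below it for 3, and inside it for 8 in females, above it for 1. By limma 0 members differed between female and male Het, 0 between Het1 and Het2, and 0 in their KO effect between the sexes; the unadjusted p was under 0.05 for 0 of 9 members in each of these contrasts, where 0.0% of all families were called. Among all 528 families it was under 0.05 for 18 between the sexes in Het, for 1 between Het1 and Het2 and for 3 in the KO effect between the sexes. Such counts of 0 do not show that effects are equal. For MMERVK10C-int the female minus male difference of the effect was 0.02 with an SE of 0.51, and for RLTR10C -0.12 with an SE of 0.49.

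The histone marks come from 1 library per sex and genotype, so their differences have no replicate check within a sex and no p is given. In male Het PGCs the 9 families carried 0.94 to 1.69 RPKM of H3K9me3, against 0.19 to 0.25 RPKM of total H3 in wild-type male PGCs, where all families had a median of 0.21. The median H3K9me3 of all 539 families was 0.18 RPKM in that library, so every member stood well above it. IAP families were higher, with a median of 2.03 RPKM in male Het, and ETn/MusD families lower, with 0.75.

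H3K9me3 was lower in KO than in Het in both sexes at 9 of 9 members, but by less than 2-fold everywhere. A fall of 2-fold in both sexes, at RPKM 0.5 or more, was seen for 0 of 9 members and 0.0% of 102 families; a fall of any size in both sexes was seen for 87.3% of these 102. So 9 of 9 is near the share of all marked families. RLTR10C fell most among the members, to 1.15 RPKM in male KO, against 1.69 in male Het, and to 0.96 RPKM in female KO, against 1.5 in female Het, or 68.0% and 64.0% of Het. By the mean log2 ratio of the sexes it was the lowest of the 102 families, and RLTR10B2 was number 5, with 1.07 RPKM in male KO against 1.56 in male Het, and 1.00 RPKM in female KO against 1.41 in female Het.

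The remaining members kept a larger share of their Het RPKM. RPKM is scaled to the depth of each library, so such percents are relative for either mark. A loss shared by the whole genome would not show in them. MMERVK10C-int, with the strongest rise in RNA, had 1.02 RPKM in male KO against 1.30 in male Het, and 1.01 RPKM in female KO against 1.22 in female Het, which leaves 78.5% and 82.8%. It was number 40 of 102 by its mean log2 ratio, and its female loss was the smallest among the 9 members. RLTR10A, RLTR10D, RLTR10 and RLTR10-int kept 90.4% to 96.0% in males and 73.2% to 78.8% in females, while RLTR10B and RLTR10E kept 79.5% and 82.6% in males and 74.4% and 74.6% in females. The members with more H3K9me3 in male Het fell further (Spearman's rho = -0.967 between that level and the mean log2 ratio over 9 families, a description, since the same Het values enter both). In KO the 9 levels lay closer together in males: 0.89 to 1.23 RPKM in male KO, against 0.94 to 1.69 RPKM in male Het, and 0.75 to 1.06 RPKM in female KO, against 1.00 to 1.5 RPKM in female Het. The median log2 ratio of the 9 members, -0.26 in males and -0.39 in females, compares with -0.18 and -0.32 for the 102 families at RPKM 0.5 or more, and with 0.14 and 0.05 for all 539 families, most of which carry little of the mark.

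**Figure D4:**
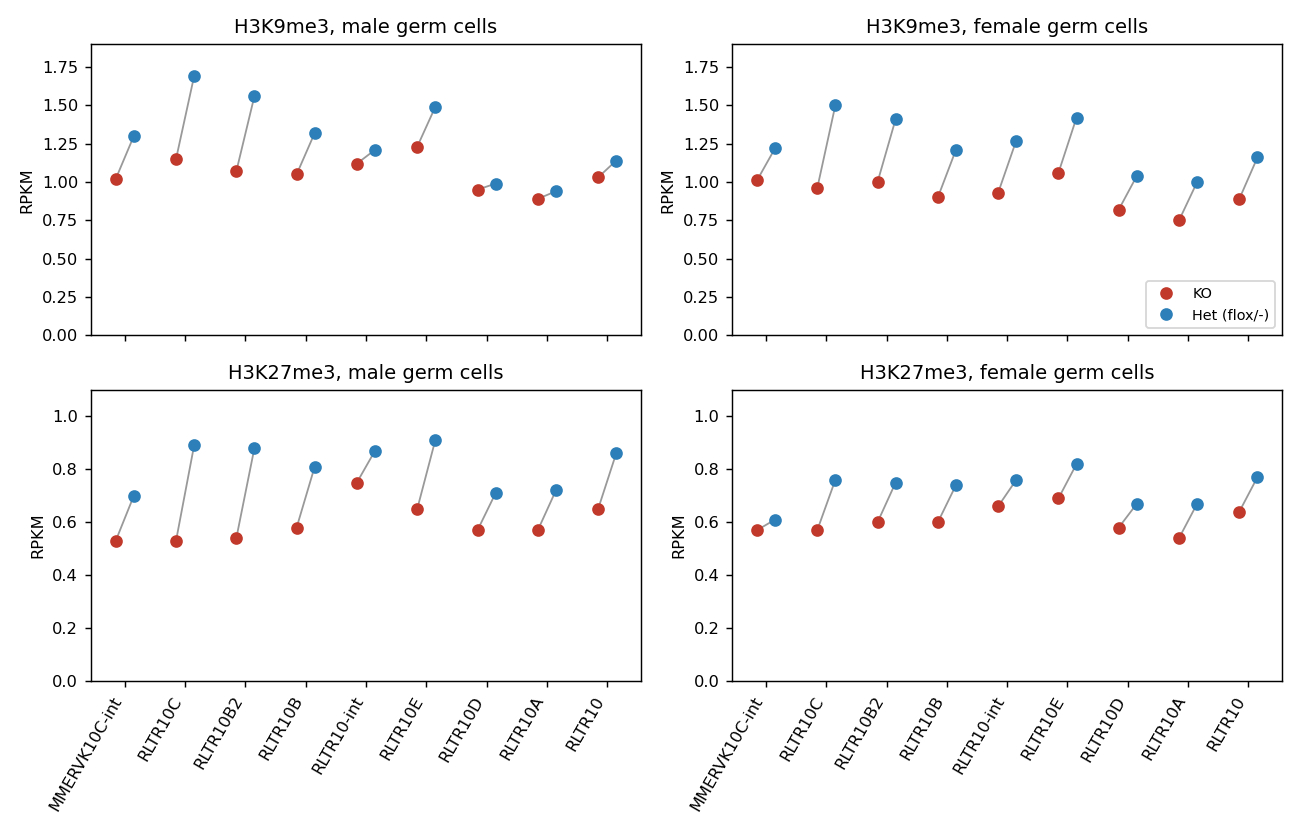
H3K9me3 (top) and H3K27me3 (bottom) of the 9 families in KO and Het (flox/-) PGCs, in RPKM from 0, with 1 library per point and a line joining the genotypes. KO lies below Het in all 36 pairs, and in males RLTR10C and RLTR10B2 have the steepest lines for both marks.

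H3K27me3 was lower in KO as well, at 9 of 9 members in both sexes. Of the 66 families at RPKM 0.5 or more for this mark, 0.0% fell 2-fold and 98.5% fell by any size in both sexes, so the members' count is again close to the background. RLTR10C had 0.53 RPKM in male KO, against 0.89 in male Het, and 0.57 RPKM in female KO, against 0.76 in female Het, or 59.6% and 75.0%, and was the lowest of the 66 by the mean log2 ratio. RLTR10B2, number 4 in that order, kept 61.4% in males and 80.0% in females. MMERVK10C-int kept 75.7% in males and 93.4% in females, with 0.57 RPKM in female KO against 0.61 in female Het. The members that lost most of one mark lost most of the other (Pearson's r = 0.908 and Spearman's rho = 0.75 over the 9 mean log2 ratios, a description across families that share libraries and perhaps reads).

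**Figure D5:**
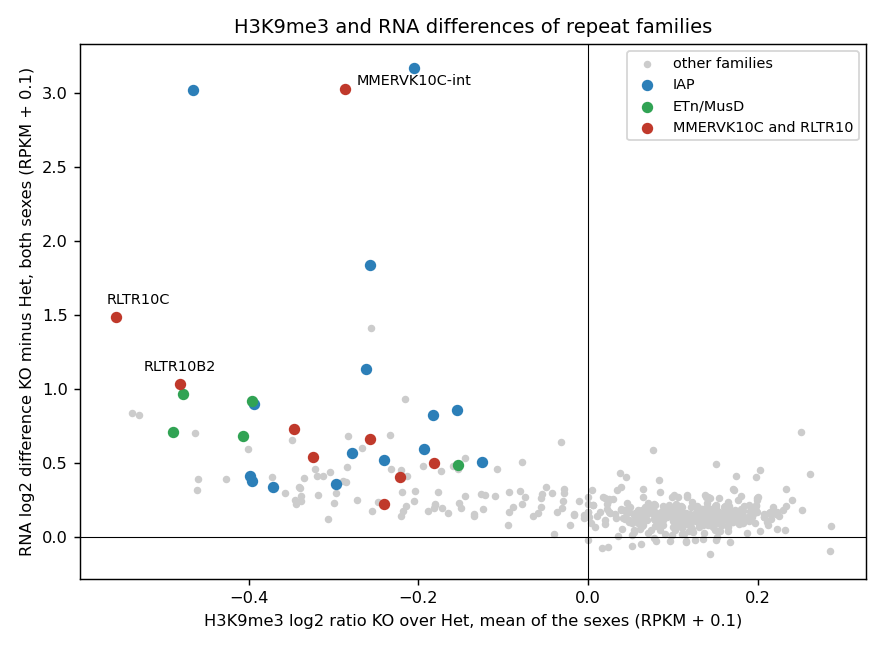
Each point is a repeat family, with the H3K9me3 log2 ratio of KO over Het (mean of the sexes) on the x axis and the KO minus Het RNA difference over both sexes on the y axis, both after adding 0.1 RPKM. RLTR10C is furthest left at -0.56 with an RNA difference of 1.49, and MMERVK10C-int is at -0.29 with 3.03.

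Set side by side, the size of the RNA rise and of the H3K9me3 loss did not follow one order over the 9 members. RLTR10C, RLTR10B2 and RLTR10B, with mean H3K9me3 log2 ratios of -0.56, -0.48 and -0.35, had RNA differences of 1.49, 1.03 and 0.73 over both sexes. RLTR10, RLTR10A and RLTR10D, with -0.24, -0.22 and -0.18, had 0.22, 0.41 and 0.50. RLTR10E and RLTR10-int, with -0.32 and -0.26, had 0.54 and 0.66, and MMERVK10C-int, with -0.29, had 3.03. As a description over 9 families of shared libraries, Spearman's rho of the RNA difference with the H3K9me3 ratio was -0.733 and Pearson's r was -0.297.

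The members also share a property that their names do not fix. The deposited mappability, whose definition is not given in the sources used here, was 0.55 to 0.94 for the 9 families (median 0.83), against a median of 0.05 over all families and 0.15 over the remaining ERVK families. All 16 IAP and all 5 ETn/MusD families were likewise at 0.5 or above, as were 95 of the 539 families in all. Within the group RLTR10D (0.55) and RLTR10E (0.66) had the lowest values, and RLTR10-int (0.94) and RLTR10 (0.90) the highest. MMERVK10C-int (0.88) and RLTR10C (0.86), with the largest RNA differences, were next.

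IAP and ETn/MusD are other ERVK groups, set beside the members by name and not by likeness. Over both sexes 11 of 15 tested IAP families and 2 of 5 ETn/MusD families rose, with median log2 differences of 0.59 and 0.71, against 7 of 9 members and 0.66. The median H3K9me3 log2 ratio was -0.26 in males and -0.39 in females for the members, -0.17 and -0.36 for IAP, and -0.48 and -0.43 for ETn/MusD. These differences between groups of families were not tested.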

How the data were processed

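Per the labels' protocols, germ cells were sorted from gonads by SSEA1. The submitters' processing notes name BWA, SAMtools and Bismark and the build mm9. No version, read counter, scaling total or handling of reads with many matches was found in these sources. The deposited repeat and gene tables hold RPKM values from the authors, with a column for each library, per the file headers. Repeat values have 2 decimals in 9 of the 12 libraries tested and 3 in the other 3, so a step of 0.01 is a large part of a value near 0.05. The deposited repeat table also gives each family's number of elements and its mappability, a fraction that the authors do not define in the labels. Read depth is unknown. The DNA methylation libraries are not analysed here.

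Members, lists, filter and pseudocount were chosen with earlier results of these data known. In R 4.3.3, limma 3.58.1 (lmFit, then eBayes with trend) was fitted to log2(RPKM + 0.1) of 12 libraries in 4 group means, keeping families that reached RPKM 0.1 in 2 libraries. Het1 minus Het2 used 6 group means. Tests were two-sided, with Benjamini-Hochberg adjustment over all 528 families and a threshold of 0.05. Genes were fitted as log2(RPKM + 1), 13518 in all. WT stayed outside the fits. Nothing says that replicates are separate embryos, so p-values measure the spread between libraries, which may be technical. The fit took the same spread for all 4 groups. For MMERVK10C-int and RLTR10C, whose KO libraries differed most, SEs and p-values are therefore too small. ChIP was called by size: 2-fold the same way in both sexes on RPKM + 0.1, at RPKM 0.5 or more in KO or Het in both. Every member is named, with the 5 other families of highest r with MMERVK10C-int. IAPEz-int is named outside this rule, as an example of the IAP families with the order of RLTR10B2. IAP and ETn/MusD were grouped by name. The fit was tested on simulated data, with independent noise of equal spread in KO and Het and no shift of whole libraries. That check does not cover the wider KO spread and the library shifts seen here. Alternatives were other pseudocounts, filters, scalings, controls and group means, a replicate block, eBayes without trend and leaving out each library.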

Additional observations from a re-analysis of the deposited data

Results flagged for a closer look

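MMERVK10C-int RNA in male Het libraries had 1 library apart from the other 3: male Het1 replicate 1 stood at 0.12 RPKM and its nearest neighbour at 0.102, a gap of 0.857 of the group's range, past the limit of Dixon's test for 4 libraries. It was the only one of 18 groups checked (9 families in 2 sexes), and chance flags about 1 in 20. The value is below every KO library of either sex.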

How the results depend on the processing

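Over both sexes the number of members called by limma was 7, with 3 against Het1 alone and 1 at a filter of RPKM 1, which keeps 12 families and 1 member. RLTR10D and RLTR10E also lost the call under median centring, 6 group means, Het2 alone as control or eBayes without trend. RLTR10E and RLTR10-int lost it under quantile normalization, and RLTR10D and RLTR10-int against the Het libraries numbered 2. RLTR10E lost it under the replicate block with median centring. In males the number called was 4, with 1 under median centring, quantile normalization, the RPKM 1 filter or the replicate block with median centring, and 2 against Het1 alone. RLTR10B also lost its male call against Het2 alone. In females it was 3, with 1 under median centring, the RPKM 1 filter or Het1 alone as control. Under quantile normalization or the replicate block with median centring, RLTR10B2 and RLTR10C lost the female call and RLTR10D gained one. RLTR10C also lost it against the Het libraries numbered 2. Leaving out 1 library at a time gave 4 to 8 over both sexes (8 without female Het1 replicate 2), 2 to 4 in males (2 without either male KO library) and 2 to 4 in females (2 without either female KO library). The replicate block gave 8 members over both sexes (64 of all families, against 36 without the block), 4 in males (32, against 13) and 5 in females (26, against 10). The block added RLTR10A over both sexes (0.41, adjusted p = 0.0265 by limma) and, in females, RLTR10E (0.68, adjusted p = 0.018) and RLTR10-int (0.72, adjusted p = 0.0169), and changed no other call of a member. Replicate numbers are only 2 and no label says what they share, so they were not taken as pairs, though deviations of same-numbered libraries correlated at 0.201 to 0.592 within a sex; the block with median centring was added after seeing the data. RLTR10, never called, changed sign over both sexes under quantile normalization (-0.024) and against the Het libraries numbered 2 (-0.030), in males under median centring with or without the block (-0.029) and quantile normalization (-0.055), and in females against the Het libraries numbered 2 (-0.12) and without female KO replicate 2 (-0.064; range on leaving out 1 library -0.064 to 0.40). RLTR10A in males, also not called, was -0.020 under quantile normalization. The cause of these changes was not tested. Setdb1 passed with median centring (-0.64), with WT pooled into Het (-0.57) and without female Het2 replicate 1 (-0.48; range on leaving out 1 library -0.59 to -0.48). MMERVK10C-int was called in all 3 contrasts of KO with Het under every alternative run. It passes the RPKM 1 filter through KO libraries only, since its Het libraries reach 0.18 RPKM at most. Its call under that filter is therefore no further support. The counts of members past the fold limit for H3K9me3 and H3K27me3 stayed at 0 under every alternative, a lower fold limit included. A higher fold limit and another or no RPKM minimum could not raise these counts, since all 9 members already met the minimum. Those settings are no further support. Of the single RNA differences 620 kept their direction and side of the threshold, 69 lost a call and 8 gained one. Of the single ChIP ratios 105 moved by no more than the SD between the log2 ratios of the sexes, and 21 by more. Depth is unknown, and the 2 decimals limit members near 0.05 RPKM.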
